A study of Mus musculus with 8 samples.

Results

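Folate-bound one-carbon units and the methionine cycle were followed through 8 genes: Shmt1, Mthfd1 and Tyms of the cytosolic folate cycle, Shmt2, Mthfd2 and Mthfd1l of the mitochondrial folate cycle, and Mtr and Mtrr of the methionine synthase step. They were chosen by name for their place in the pathway, with earlier results of these data known. All 8 were among the 22180 genes measured by a probe set with a single gene symbol. Each had 1 such probe set. Mouse CD3+ T cells of strain C57BL/6J were taken from spleens and lymph nodes by negative selection and profiled on 8 Affymetrix Mouse Gene ST 2.0 arrays. The mice were generally 8 weeks old, per the study's methods, and nothing in the labels distinguishes the animals behind one array from those behind another. Cells were stimulated with plate-immobilized anti-CD3 and anti-CD28 (iAb) or with soluble anti-CD3 and anti-CD28, each at 3 h and 24 h. The soluble antibodies were given together with latrunculin A (sAb+LatA) or without it (sAb). Per the study's methods, a secondary anti-hamster IgG was added after the soluble antibodies. The cells of the 24 h arrays had been stimulated for 3 h, washed and cultured further. Cells given only latrunculin A (LatA), which sequesters monomeric actin so that filaments cannot form, and untreated cells (naive, 0 h) completed the set. For the LatA array the label gives the time as control, whereas the methods state 3 h. Each condition has 1 array, so a difference between 2 arrays carries no replicate error and no test.

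Cells carry one-carbon units on tetrahydrofolate. Serine donates the unit through a serine hydroxymethyltransferase, a set of folate dehydrogenases and synthetases changes its oxidation state in mitochondria and cytosol, and the unit ends in thymidylate, in the purine ring or in methionine. Dividing T cells are known to draw on this pathway for nucleotides, and methionine synthase ties it to the methyl groups used on DNA, RNA and proteins.

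Levels are log2 values normalized across the arrays, and the background of an array was the 95th percentile over 1432 genes for receptors of smell, taste and pheromones (4.71 to 4.99). All 8 genes lay above it on 8 of 8 arrays. Between 2 arrays the differences of those receptor genes had a standard deviation of 0.29 to 0.36, which gives a scale for differences at low intensity. A gene was called at 1.5-fold or more. The 7 T cell markers measured, among them Cd3e, Cd4 and Cd8a, were above background on every array. The 8 markers of myeloid and dendritic cells summed to 215 to 237 on the linear scale at 24 h and 389 to 420 at 3 h, against 694 to 759 without antibody, with 4 to 5 of the 8 above background at 3 h, 2 to 4 at 24 h, 5 to 6 without antibody, and Itgam on none. The 5 B cell markers summed to 210 to 268 at 24 h and 189 to 200 at 3 h, against 201 to 202 without antibody. In bulk RNA, fewer cells of a type and less RNA per cell cannot be told apart. Of the 4 NK cell markers, summing to 654 to 863 at 24 h and 523 to 677 at 3 h, against 186 to 208 without antibody, Eomes, which activated CD8 T cells also express, carried the increase, and Klrb1c and Klre1 were below background on every array. Among the T cell markers Cd8a read 11.03 and Cd4 10.83 with iAb at 3 h, against 9.82 and 11.34 in naive cells. The part of these marker changes in the results below was not tested.

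Promoter sequence is shown for 4 of the genes because they stand for the 4 courses described below: Shmt1, highest at 3 h with iAb, Mthfd2, at its final level by then with iAb, Tyms, high only at 24 h, and Mtr, nearly level throughout. The windows run from 250 bases before to 50 after the RefSeq transcription start (build GRCm38.p6) and are read 5′ to 3′ on the strand of the gene. The start used is the end of the annotated gene for Shmt1, but not for Mthfd2, Tyms and Mtr. Positions of motifs hold for the start used. Capitals mark CCAAT on either strand, the letters read by the factor NF-Y, and the E-box CACGTG, read by factors of the Myc type. All 4 genes lie on the minus strand, at chr11:60811216-60811515 for Shmt1, chr6:83317555-83317854 for Mthfd2, chr5:30073576-30073875 for Tyms and chr13:12258064-12258363 for Mtr.
Shmt1: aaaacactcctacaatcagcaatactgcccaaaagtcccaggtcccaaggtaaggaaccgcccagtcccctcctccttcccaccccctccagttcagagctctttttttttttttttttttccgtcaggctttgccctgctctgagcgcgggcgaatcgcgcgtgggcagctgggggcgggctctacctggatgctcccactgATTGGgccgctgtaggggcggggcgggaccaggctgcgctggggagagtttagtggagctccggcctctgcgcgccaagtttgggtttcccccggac
Mthfd2: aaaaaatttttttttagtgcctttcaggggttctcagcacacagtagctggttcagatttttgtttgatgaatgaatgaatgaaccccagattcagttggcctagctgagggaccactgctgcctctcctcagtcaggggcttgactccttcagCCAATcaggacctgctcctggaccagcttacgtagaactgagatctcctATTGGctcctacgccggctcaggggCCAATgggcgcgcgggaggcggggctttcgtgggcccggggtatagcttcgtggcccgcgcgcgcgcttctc
Tyms: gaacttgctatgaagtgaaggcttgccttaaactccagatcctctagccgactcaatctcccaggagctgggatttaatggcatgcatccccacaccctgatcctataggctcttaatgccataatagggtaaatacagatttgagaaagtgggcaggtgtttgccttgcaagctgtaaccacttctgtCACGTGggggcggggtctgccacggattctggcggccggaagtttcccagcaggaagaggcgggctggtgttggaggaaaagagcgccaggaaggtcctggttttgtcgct
Mtr: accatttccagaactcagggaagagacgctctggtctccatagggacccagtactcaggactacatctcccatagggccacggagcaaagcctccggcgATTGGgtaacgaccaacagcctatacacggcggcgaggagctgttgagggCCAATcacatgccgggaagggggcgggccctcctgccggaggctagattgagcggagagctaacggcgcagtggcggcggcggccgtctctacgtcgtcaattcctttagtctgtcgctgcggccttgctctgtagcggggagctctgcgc

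CCAAT on either strand was present in the windows of 5 of the 8 genes, against 37.4% of all 32851 mouse windows of this length. Mthfd2 held 3 copies, 96 to 92, 47 to 43 and 22 to 18 bases before its start, and Mtr held 2. Shmt1, Mthfd1 and Mtrr held 1 in a window, and Mtrr has 2 windows. CACGTG was found in 1 of the 8, the window of Tyms, 61 to 56 bases before the start, against 7.15% of all windows. Neither TGATGNAA, the amino acid response element of ATF4, nor TTTNGCGC, an E2F site, was present in any of the 8, against 3.97% and 1.38% of all windows on both strands. CCAAT was thus found in the early gene Shmt1 as in the level gene Mtr. These are matches of letters only.

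Shmt1, the cytosolic serine hydroxymethyltransferase, had the widest range of the 8. At 3 h it stood at 9.34 with iAb, 8.31 with sAb+LatA and 7.37 with sAb, against 5.53 in naive cells. At 24 h it stood at 8.84 with iAb, 8.90 with sAb+LatA and 8.41 with sAb, so the 3 stimuli lay close together by then. LatA alone gave 5.63. The iAb array at 3 h was 14.0-fold above the naive array, which placed Shmt1 at rank 12 of 12239 genes. The sAb array at 3 h was 3.59-fold above the naive array (rank 32 of 12211).

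Mthfd1, the trifunctional cytosolic enzyme that interconverts methylene-, methenyl- and formyl-tetrahydrofolate, followed with a smaller early step and a further one later. Its level was 9.00 with iAb, 8.40 with sAb+LatA and 7.72 with sAb at 3 h, against 6.62 in naive cells. By 24 h it was 9.52 with iAb, 9.42 with sAb+LatA and 8.97 with sAb. Every antibody-treated array exceeded both arrays without antibody, of which LatA alone read 7.08. The fold over naive cells was 5.20 with iAb, 3.42 with sAb+LatA and 2.15 with sAb at 3 h, and 7.47, 6.97 and 5.09 in the same order at 24 h.

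Tyms, thymidylate synthase, makes the thymine nucleotide of DNA and hands back dihydrofolate. Its level at 3 h was 5.78 with iAb, 5.89 with sAb+LatA and 5.91 with sAb, against 6.02 in naive cells. These 4 arrays lay within the spread of the receptor genes of each other, and LatA alone was lowest at 5.58. At 24 h Tyms read 8.62 with iAb, 8.82 with sAb+LatA and 7.95 with sAb. All 3 arrays of 24 h stood far above the other 5, by 6.05-fold with iAb, 6.99-fold with sAb+LatA and 3.81-fold with sAb over naive cells. Another probe set shared by Tyms and its pseudogene Tyms-ps was not used.

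Shmt2, the mitochondrial serine hydroxymethyltransferase, was already at 8.65 in naive cells. At 3 h it read 10.50 with iAb, 10.09 with sAb+LatA and 9.33 with sAb, and at 24 h 11.17 with iAb, 11.19 with sAb+LatA and 10.68 with sAb. LatA alone gave 8.88, below all antibody-treated arrays. Relative to naive cells this was 3.61-fold with iAb and 1.60-fold with sAb at 3 h, and 5.74-fold with iAb and 4.08-fold with sAb at 24 h.

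Mthfd2, the mitochondrial methylene-tetrahydrofolate dehydrogenase and cyclohydrolase, is known as low in most adult tissues and high in dividing cells. It read 9.01 with iAb, 8.65 with sAb+LatA and 7.62 with sAb at 3 h, against 6.90 in naive cells and 7.14 with LatA alone. At 24 h it read 9.07 with iAb, 9.07 with sAb+LatA and 8.78 with sAb. With iAb the 3 h and 24 h arrays differed by 0.06, while with sAb they differed by 1.16.

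Mthfd1l, the mitochondrial formyl-tetrahydrofolate synthetase that releases formate to the cytosol, had the smallest change of the 3 mitochondrial genes. It read 8.76 with iAb, 8.37 with sAb+LatA and 8.07 with sAb at 3 h, against 7.53 in naive cells and 7.97 with LatA alone. At 24 h the levels were 9.22 with iAb, 9.21 with sAb+LatA and 8.90 with sAb. The sAb array at 3 h exceeded the naive array 1.45-fold, short of the 1.5-fold call, and exceeded the LatA array by little.

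The methionine synthase step split into a level and a moving gene. Mtr, the cobalamin-dependent methionine synthase itself, spanned 0.44 over the 8 arrays. It read 7.73 with iAb, 7.77 with sAb+LatA and 7.84 with sAb at 3 h, 8.16 with iAb, 8.12 with sAb+LatA and 8.08 with sAb at 24 h, 8.01 with LatA alone and 7.77 in naive cells. The 24 h arrays were the highest, and no array differed from another by 1.5-fold.

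Mtrr, methionine synthase reductase, returns the oxidized cobalamin of methionine synthase to its active form. It read 8.99 with iAb, 8.31 with sAb+LatA and 7.73 with sAb at 3 h, against 6.72 in naive cells and 7.16 with LatA alone. At 24 h it read 7.93 with iAb, 7.86 with sAb+LatA and 7.74 with sAb. The iAb array of 3 h stood above all others, and the 3 arrays of 24 h lay near the sAb array of 3 h. The excess over naive cells with iAb was 4.84-fold at 3 h and 2.32-fold at 24 h.

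**Figure D1:**
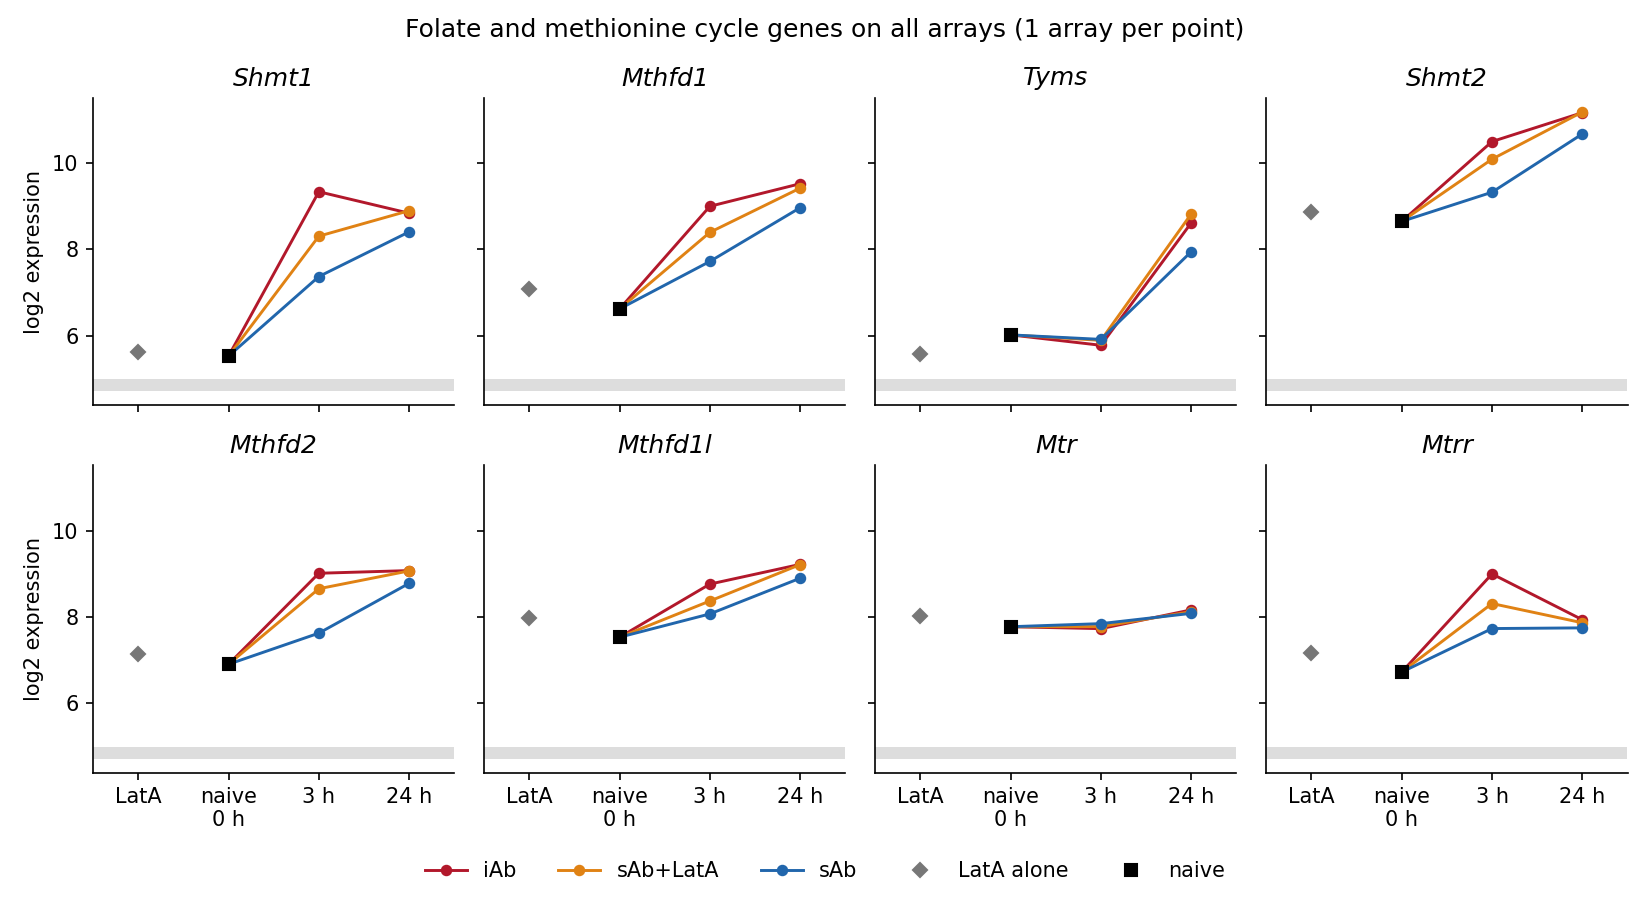
Normalized log2 level of each of the 8 genes (vertical axis) on 8 arrays, with LatA alone (diamond), naive cells (square) and iAb, sAb+LatA and sAb at 3 h and 24 h as lines, 1 array per point; the grey band is the range of array backgrounds, 4.71 to 4.99. Shmt1 and Mtrr are highest with iAb at 3 h, Tyms is high at 24 h only, and Mtr stays between 7.73 and 8.16.

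Counted over the 8 genes, activation was accompanied by higher levels of most of them at both times. At 3 h, 6 genes were at least 1.5-fold higher than in naive cells with iAb and 6 with sAb+LatA (Tyms and Mtr were the exceptions), and 5 with sAb, where Mthfd1l also fell short. Over all genes above background, 15% of 12239 were called higher and 12.6% lower with iAb, 10.4% and 8.81% with sAb+LatA, and 6.19% and 3.57% with sAb. At 24 h, 7 of the 8 (all but Mtr) were called higher with each stimulus, against 21.2% higher and 12.9% lower over all genes with iAb, 19.7% and 11.8% with sAb+LatA, and 17.2% and 8.85% with sAb. None of the 8 was called lower than in naive cells under any stimulus. The 6 comparisons share the naive array, so an error on that array enters all of them.

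The median difference of the 8 genes from naive cells was 1.98 with iAb, 1.52 with sAb+LatA and 0.70 with sAb at 3 h, beside -0.03, -0.04 and 0.03 over all genes in the same order. At 24 h it was 2.35 with iAb, 2.35 with sAb+LatA and 1.90 with sAb, beside 0.01, 0.03 and 0.03 over all genes. With LatA alone the median was 0.24, beside 0.02 over all genes, and 7 of the 8 were above the naive array, but 0 were called in either direction against 0.919% higher and 1.14% lower over 11964 genes. The largest differences of LatA from naive cells were 0.46 for Mthfd1, 0.44 each for Mthfd1l and Mtrr, and -0.44 for Tyms, and 2.32% to 2.89% of all genes lay above Mthfd1, Mthfd1l and Mtrr in this comparison.

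The stimuli were ordered at 3 h. The iAb array exceeded the sAb array at least 1.5-fold for 6 genes, Shmt1, Mthfd1, Shmt2, Mthfd2, Mthfd1l and Mtrr, where 8.7% of 12345 genes were called higher and 10.2% lower. Their excess was 3.91-fold for Shmt1, 2.62-fold for Mthfd2, 2.42-fold for Mthfd1, 2.40-fold for Mtrr, 2.26-fold for Shmt2 and 1.61-fold for Mthfd1l. Tyms and Mtr differed by -0.14 and -0.12 on the log2 scale. Shmt1 held rank 29 of all genes in this comparison and Mthfd2 rank 94.

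Adding LatA to the soluble antibodies placed 4 genes at least 1.5-fold above sAb at 3 h, against 2.47% of 12505 genes called higher and 3.41% lower. These were Mthfd2 (2.04-fold, rank 31), Shmt1 (1.91-fold, rank 53), Shmt2 (1.70-fold, rank 116) and Mthfd1 (1.60-fold). Mtrr lay just under the call at 1.49-fold and Mthfd1l at 1.23-fold. LatA by itself had moved these 4 genes by 0.11 to 0.46 on the log2 scale relative to naive cells, on a different array and without antibody.

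The sAb+LatA arrays stood between the others at 3 h. With iAb, 3 genes exceeded sAb+LatA at least 1.5-fold, Shmt1 (2.04-fold), Mtrr (1.61-fold) and Mthfd1 (1.52-fold), against 4.26% of 12490 genes higher and 4.5% lower. The order sAb, sAb+LatA, iAb from low to high held at 3 h for 6 of the 8 genes (all but Tyms and Mtr), and for 24.8% of 12678 genes. At 24 h it held for 5 of the 8, Mthfd1, Mthfd2, Mthfd1l, Mtr and Mtrr, and for 23.8% of 12875 genes, but the steps were then smaller. For these 5, iAb exceeded sAb+LatA at 24 h by only 0.0046 (Mthfd1l) to 0.10 (Mthfd1). That lies within the spread of the receptor genes (0.35), so the place of iAb above sAb+LatA carries no weight at 24 h.

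By 24 h the stimuli had drawn together. Tyms alone exceeded sAb at least 1.5-fold with iAb (1.59-fold), against 3.22% of 12608 genes higher and 2.59% lower. Tyms was likewise the only one of the 8 to exceed sAb by that factor with sAb+LatA (1.83-fold, rank 30), against 1.82% of 12662 genes higher and 1.95% lower. No gene of the 8 differed by 1.5-fold between iAb and sAb+LatA, where 0.963% of 12670 genes were called higher and 1.05% lower, and the largest difference was -0.21 for Tyms. The median excess of iAb over sAb was 1.22 at 3 h and 0.38 at 24 h, beside -0.02 and 0.01 over all genes. For Shmt1, Mthfd2 and Mtrr the excess at 3 h was larger than at 24 h by 1.53, 1.09 and 1.08, and for Mthfd1l by 0.37.

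**Figure D2:**
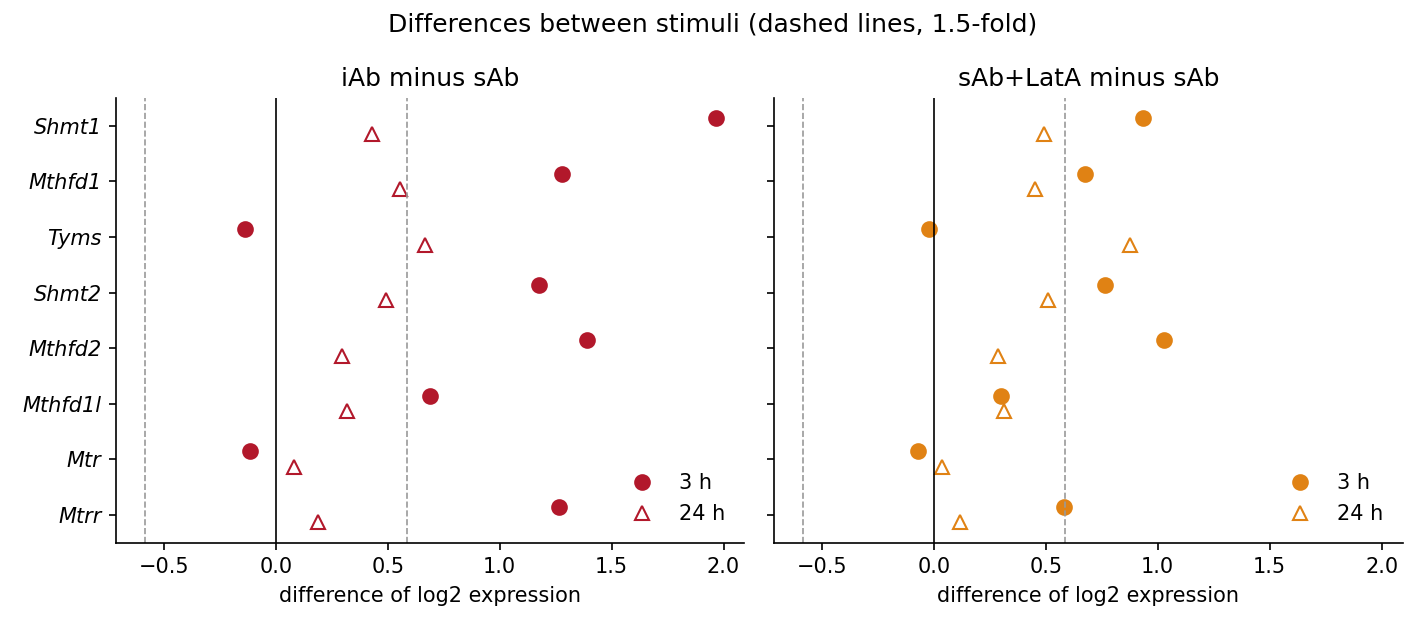
Difference of log2 expression (horizontal axis) of iAb minus sAb (left) and sAb+LatA minus sAb (right) for each gene at 3 h (filled circles) and 24 h (open triangles), 1 array against 1 array; dashed lines mark 1.5-fold. At 3 h, 6 genes pass the line with iAb and 4 with sAb+LatA, and at 24 h only Tyms does.

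The timing differed between genes, and the pace depended on the stimulus. As a share of the 24 h difference from naive cells, the 3 h difference with iAb was 187% for Mtrr, 115% for Shmt1, 97.1% for Mthfd2, 82% for Mthfd1, 73.4% for Shmt2, 72.9% for Mthfd1l and -9.28% for Tyms. With sAb+LatA it was 139% for Mtrr, 82.5% for Shmt1, 80.9% for Mthfd2, 63.4% for Mthfd1, 56.9% for Shmt2 and 49.9% for Mthfd1l. With sAb it was 98.4% for Mtrr, 64% for Shmt1, 46.9% for Mthfd1, 39.5% for Mthfd1l, 38.4% for Mthfd2 and 33.4% for Shmt2. Of the 7 genes other than Mtr, Mtrr and Shmt1 thus came first and Tyms last with every stimulus, and each gene other than Tyms and Mtr was further along with iAb than with sAb.

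**Figure D3:**
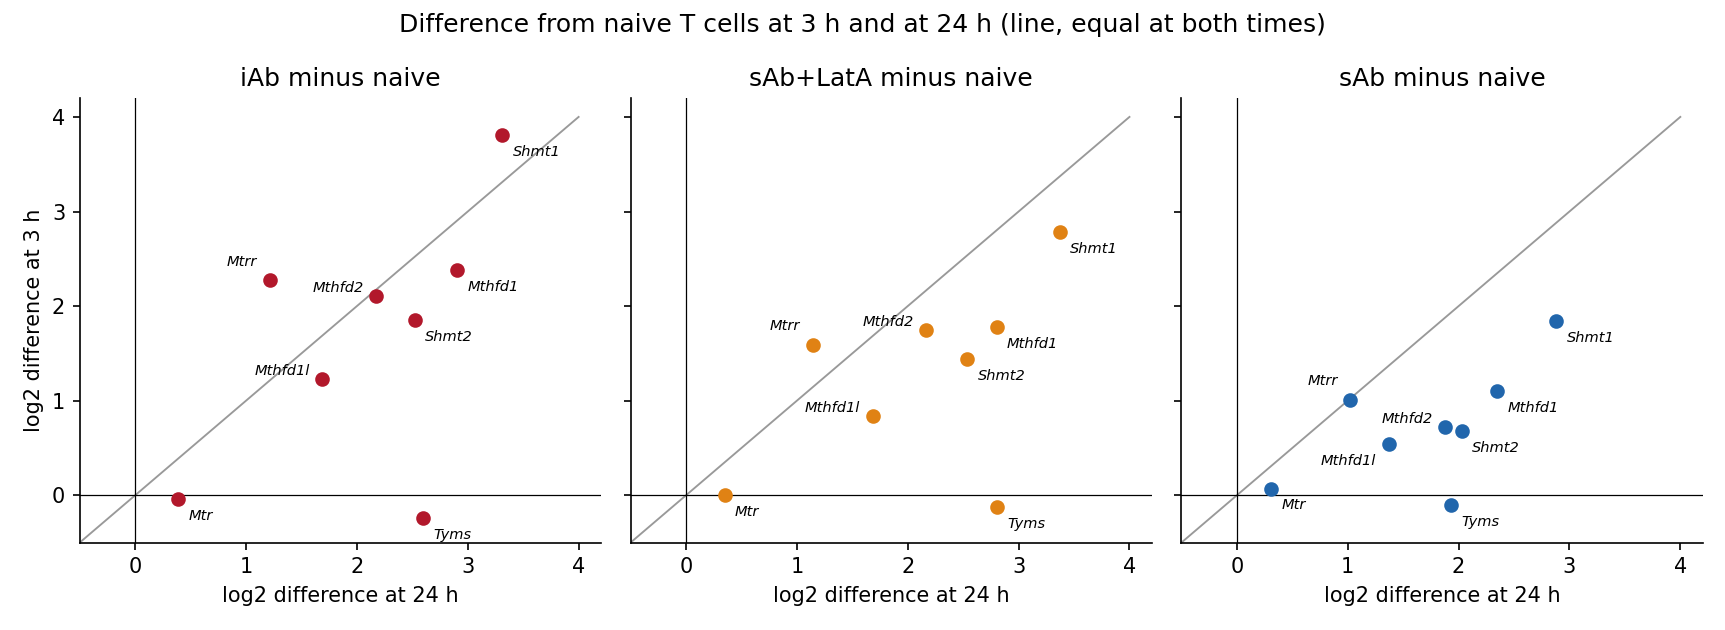
Log2 difference from naive cells at 3 h (vertical axis) against that at 24 h (horizontal axis) for iAb, sAb+LatA and sAb; each point is 1 gene and the grey line marks equal differences. With iAb, Mtrr and Shmt1 lie above the line and Mthfd2 close to it, while with sAb Mtrr lies close to it and every other gene below.

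Between 3 h and 24 h of the same stimulus, 6 of the 8 were at least 1.5-fold higher at 24 h with sAb, against 9.52% of 12520 genes higher and 5.64% lower. Mtr (0.24) and Mtrr (0.02) were the exceptions. With sAb+LatA 5 were higher (Tyms, Shmt2, Mthfd1, Mthfd1l and Shmt1), against 13.2% of 12778 genes higher and 7.4% lower. With iAb only Tyms (7.16-fold) and Shmt2 (1.59-fold) were higher, and Mtrr was called lower (-1.06), against 16.1% of 12605 genes higher and 9.48% lower. Shmt1 with iAb differed by -0.50 at 24 h relative to 3 h, under the call.

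The one test the design allowed was an additive fit to the 6 antibody-treated arrays (limma, stimulus and time as terms, 2 residual degrees of freedom), in which the 3 stimuli stand in for replicates of time. Of the 8 genes, 4 rose at 24 h relative to 3 h, against 13.2% of the 13245 genes tested, and 0 fell, against 7.33%. Tyms was higher by 2.60 ± 0.19 (standard error, adjusted p = 0.00119 in limma), Shmt2 by 1.04 ± 0.16 (adjusted p = 0.00793), Mthfd1 by 0.93 ± 0.16 (adjusted p = 0.0125) and Mthfd1l by 0.71 ± 0.13 (adjusted p = 0.0147). All 4 were higher at 24 h under 3 of 3 stimuli. Without the sAb+LatA arrays only Tyms kept its call (adjusted p = 0.0074), while Shmt2 (1.01, adjusted p = 0.0540), Mthfd1 (0.88, adjusted p = 0.0813) and Mthfd1l (0.64, adjusted p = 0.114) had effects of similar size that no longer passed.

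The other 4 did not pass. Mthfd2 differed by 0.54 ± 0.21 (adjusted p = 0.129 in limma), Shmt1 by 0.38 ± 0.28 (adjusted p = 0.405), Mtr by 0.34 ± 0.11 (adjusted p = 0.0857) and Mtrr by -0.50 ± 0.21 (adjusted p = 0.151). Mthfd2 and Shmt1 passed without the iAb arrays (adjusted p of 0.0362 and 0.0152), and Mtrr passed as lower without the sAb arrays (adjusted p = 0.0335). Shmt1 was lower at 24 h than at 3 h with iAb (-0.50) and higher with sAb (1.04), and Mtrr was lower with iAb (-1.06) and level with sAb (0.02), which 1 common time effect does not describe.

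In the same fit no gene of the 13245 was called between stimuli. The fit assumes the same effect of a stimulus at both times. A gap that narrows, as iAb minus sAb did for Shmt1 (1.97 at 3 h, 0.43 at 24 h), adds to its error. The fit therefore says little about differences limited to 3 h. For iAb against sAb the shares called were 0% higher and 0% lower, with a smallest adjusted p of 0.257. Before adjustment, 1075 genes (8.12%) passed p under 0.05 as higher and 1038 as lower, with 6 of the 8 among the higher. Their effects were 1.2 ± 0.34 for Shmt1, 0.92 ± 0.20 for Mthfd1, 0.84 ± 0.26 for Mthfd2, 0.83 ± 0.19 for Shmt2, 0.73 ± 0.25 for Mtrr and 0.51 ± 0.16 for Mthfd1l, with adjusted p of 0.257 to 0.273 in limma. For sAb+LatA against sAb the shares were again 0% and 0%, with a smallest adjusted p of 0.798. Before adjustment, 280 genes passed p under 0.05 as higher and 454 as lower, among them Shmt2 (0.64 ± 0.19), Mthfd2 (0.66 ± 0.26) and Mthfd1 (0.56 ± 0.20) as higher.

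**Figure D4:**
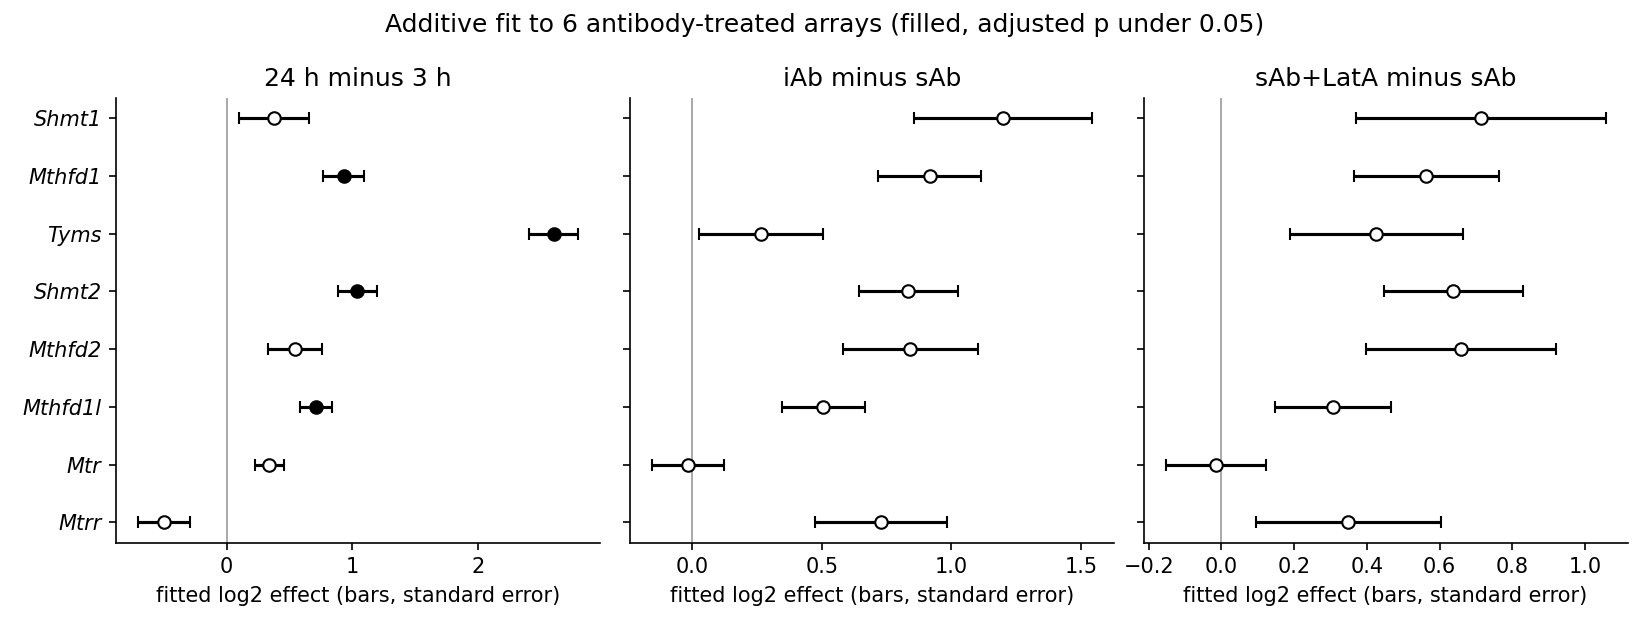
Fitted log2 effects of time and of stimulus (horizontal axes, each with its own scale) for the 8 genes in the additive fit to 6 arrays, with standard errors as bars; filled circles mark adjusted p under 0.05. Tyms, Shmt2, Mthfd1 and Mthfd1l are filled for time, and no gene is filled for either stimulus.

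The mitochondrial and cytosolic enzymes of the same reaction changed by unequal amounts. With iAb at 3 h Shmt2 had gained 1.85 over naive cells and Shmt1 3.81, a gap of -1.96, which was -0.79 at 24 h. With sAb the gap was -1.17 at 3 h and -0.85 at 24 h. Mthfd2 and Mthfd1 kept closer together, at -0.27 with iAb, -0.02 with sAb+LatA and -0.38 with sAb at 3 h, and at -0.73, -0.64 and -0.47 in that order at 24 h. Mthfd1l gained less than Mthfd1 on every antibody-treated array, with gaps of -0.56 to -1.21. These are differences of changes, since levels of different probe sets cannot be compared.

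Over the 8 arrays the 8 genes followed a few courses. Shmt2 correlated with Mthfd1 (Pearson r = 0.993 over 8 arrays) and Mthfd1l (0.986), and Shmt1 with Mthfd2 (0.975). Mthfd2 was as close to Mthfd1 (0.981) and Shmt2 (0.970), so these pairs do not mark separate groups. Among Shmt1, Mthfd1, Shmt2, Mthfd2 and Mthfd1l the lowest r was 0.882 (Shmt1 with Mthfd1l). Mtrr correlated most with Shmt1 (0.865) and Tyms most with Mtr (0.833), while Tyms and Mtrr had an r of 0.05. The arrays share a naive baseline and the step to stimulation, so these values describe shape only. Among 3662 genes that spanned at least 1 log2 unit, the closest to Shmt1 was Nhp2, a protein of the H/ACA ribonucleoproteins (r = 0.997), which read 9.30 with iAb, 8.93 with sAb+LatA and 8.39 with sAb at 3 h. Nolc1 and Uck2 came next (0.997 and 0.996). The closest to Shmt2 was Cad, which encodes the first enzymes of pyrimidine synthesis (0.999), then Hspd1 and Tcp1. Closest to Mthfd1 were Prmt1, an arginine methyltransferase (0.998), Ranbp1 and Anp32b, and to Mthfd2 Acsl5, Gpatch4 and Pnpt1 (0.996 to 0.994).

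Closest to Mthfd1l was Dctd, the deoxycytidylate deaminase that supplies thymidylate synthase with its substrate (0.997), followed by Rbmxl1 and Ppp5c. Tyms lay closest to Haus1, Tagln2 and Birc5, the mitotic gene survivin (0.997 to 0.996), which shared its late step: Birc5 read 7.32 with iAb, 7.27 with sAb+LatA and 6.61 with sAb at 24 h, and at most 4.23, below background, on the other 5 arrays. Mtrr lay closest to Ntmt1, Lins1 and Pprc1 (0.997 to 0.994), all highest with iAb at 3 h. Mtr spanned too little for such a ranking. The ranking is not firm: by distance in place of correlation, or over the 6 antibody-treated arrays only, 0 to 2 of each set of 3 were the same.

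The genes around the pathway were counted in lists of known roles. Of 5 folate uptake and retention genes above background, 3 were at least 1.5-fold higher with iAb than in naive cells at 3 h, 2 with sAb+LatA and 1 with sAb, against 15%, 10.4% and 6.19% of all genes in that order. Slc19a1, the reduced folate carrier of the plasma membrane, read 8.0 with iAb, 7.39 with sAb+LatA and 6.61 with sAb at 3 h, against 5.26 in naive cells, and 7.23, 7.08 and 6.91 in that order at 24 h. It thus had the course of Mtrr, highest with iAb at 3 h. Slc25a32, the mitochondrial folate carrier, read 8.89 with iAb, 8.27 with sAb+LatA and 7.79 with sAb at 3 h, against 7.21 in naive cells, and 8.39, 8.39 and 8.18 at 24 h. Slc46a1 was the third, just past the call with iAb at 3 h (6.06), while sAb+LatA (5.39) and sAb (5.43) were close to naive cells (5.47). In the additive fit 0 of these 5 passed the time test in either direction, against 13.2% of all genes higher and 7.33% lower.

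Of 10 other folate cycle enzymes above background, 2 were higher with iAb at 3 h than in naive cells and 0 lower, near the 15% and 12.6% of all genes. These were Mthfs, which returns formyl-folate to the pool (5.65 against 4.58, the naive value being below background), and Mtfmt, which formylates the initiator tRNA of mitochondria (8.16 against 7.24). At 24 h with iAb, 1 of the 10 was called higher and 2 lower, against 21.2% and 12.9% of all genes. Mtfmt was higher (0.72), Aldh1l1 was lower (-0.73), and Sardh was lower and below background (4.51, against 5.19 in naive cells). None of the 10 passed the time test in either direction, against 13.2% of all genes higher and 7.33% lower.

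Methionine synthase takes its cobalamin from a set of carriers and chaperones. Of 9 cobalamin genes, 2 were higher (Cd320 and Mmachc) and 1 lower (Mmut) with iAb at 3 h than in naive cells, near the 15% and 12.6% of all genes. Cd320, the transcobalamin receptor, read 6.81 with iAb, 6.62 with sAb+LatA and 5.94 with sAb at 3 h, against 5.60 in naive cells. Mmut, the mitochondrial methylmalonyl-CoA mutase and the other cobalamin enzyme, ran the other way, at 6.28 with iAb, 7.05 with sAb+LatA and 7.44 with sAb at 3 h, against 7.43 in naive cells, and 7.66 with iAb at 24 h. In the time test 1 of the 9 rose and 1 fell, against 13.2% and 7.33% of all genes. Mmab rose (0.92 ± 0.15, adjusted p = 0.00986 in limma) and Lmbrd1, the lysosomal cobalamin exporter, fell (-1.13 ± 0.11, adjusted p = 0.00226). The list of methionine cycle and transsulfuration genes had 5 above background: Mat2b, Ahcy, Ahcyl1, Ahcyl2 and Cbs. Of these 5, 1 (Ahcyl1) was higher with iAb at 3 h than in naive cells and 0 lower, against 15% and 12.6% of all genes. With time 2 of the 5 rose and 0 fell, against 13.2% and 7.33% of all genes. These were Ahcy, which clears S-adenosylhomocysteine (1.26 ± 0.13, adjusted p = 0.00248 in limma), and Ahcyl2 (0.46 ± 0.12, adjusted p = 0.0456). Mat2a was not analysed here.

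Genes of serine supply differed in their course. At 3 h with iAb, 4 of 7 were higher than in naive cells (Psat1, Slc1a5, Slc38a1 and Slc1a4) and 0 lower, against 15% and 12.6% of all genes. Psat1, the transaminase of serine synthesis, read 8.50 with iAb, 7.82 with sAb+LatA and 6.88 with sAb at 3 h, against 5.90 in naive cells, and 8.89, 8.81 and 8.42 in that order at 24 h. Phgdh, the first enzyme of that route, read 6.40 with iAb, 6.06 with sAb+LatA and 5.64 with sAb at 3 h, against 5.98 in naive cells, and 7.91, 7.97 and 7.36 at 24 h. LatA alone was low for Phgdh, at 4.48 and below background. Psph, the phosphatase that ends it, read 5.88 with iAb, 5.90 with sAb+LatA and 6.23 with sAb at 3 h, against 5.52 in naive cells, so that only sAb passed 1.5-fold, and 7.46, 7.22 and 7.06 at 24 h. In the time test 3 of 7 genes of serine synthesis and uptake rose, against 13.2% of all genes, and 0 fell, against 7.33%: Phgdh (1.71 ± 0.13, adjusted p = 0.00115 in limma), Psph (1.24 ± 0.17, adjusted p = 0.00554) and Psat1 (0.97 ± 0.22, adjusted p = 0.0274). The neutral amino acid carrier Slc1a5 was highest at 3 h, at 10.41 with iAb, 9.49 with sAb+LatA and 8.97 with sAb, against 8.91 in naive cells. Slc38a1, another such carrier, read 10.71 with iAb at 3 h, against 9.60 in naive cells.

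Among genes of methionine uptake, methylthioadenosine salvage and polyamines, 4 of 9 (Srm, Mtap, Slc7a5 and Enoph1) were higher with iAb at 3 h than in naive cells and 0 lower, against 15% and 12.6% of all genes. Srm, spermidine synthase, read 10.82 with iAb, 10.26 with sAb+LatA and 9.49 with sAb, against 7.62 in naive cells. Mtap, which starts methionine salvage, read 9.76, 9.17 and 8.80 in that order, against 7.75 in naive cells, and Slc7a5, a carrier of large neutral amino acids including methionine, 10.72, 10.25 and 9.55, against 8.88 in naive cells. These 3 were named for their large differences with iAb at 3 h. Other genes of the list had the opposite order at 3 h: Mri1 read 7.31 with iAb and 7.52 with sAb, Apip 5.56 with iAb and 5.78 with sAb, and Adi1 6.42 with iAb and 6.79 with sAb. With time 3 of the 9 rose (Apip, Enoph1 and Adi1) and 2 fell (Slc3a2 and Odc1), against 13.2% and 7.33% of all genes, with adjusted p of 0.0147 to 0.0464 in limma.

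Purine ring synthesis takes up formyl units from folate. Of 5 purine ring genes, 4 (all but Paics) were higher with iAb at 3 h than in naive cells, against 15% of all genes, and all 5 at 24 h, against 21.2%. Gart, whose enzyme takes a formyl-folate, read 9.74 with iAb, 9.32 with sAb+LatA and 8.83 with sAb at 3 h, against 7.80 in naive cells, and Atic, which takes the other, read 9.00, 8.83 and 8.47 in that order, against 8.06. In the time test 4 of the 5 rose, against 13.2% of all genes (Atic 0.81 ± 0.11, Paics 0.79 ± 0.12, Gart 0.67 ± 0.14 and Adsl 0.47 ± 0.13, adjusted p of 0.00577 to 0.0486 in limma) and 0 fell.

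Of 8 genes of thymidylate and deoxynucleotide supply, 6 rose with time, against 13.2% of all genes, and 0 fell, against 7.33%. Rrm2, the regulated subunit of ribonucleotide reductase, rose by 3.76 ± 0.22 (adjusted p = 0.001 in limma), Rrm1 by 2.32 ± 0.16, Tk1, thymidine kinase, by 2.31 ± 0.19 and Dut, the dUTPase that yields the substrate of thymidylate synthase, by 2.23 ± 0.14. Like Tyms, Tk1 and Rrm1 were less than 1.5-fold from naive cells at 3 h under each stimulus. Dctd, by contrast, was already high at 3 h, at 7.75 with iAb, 7.17 with sAb+LatA and 6.75 with sAb, against 5.67 in naive cells. LatA alone, without antibody, read 6.51 for Dctd, also called higher than naive cells and close to the sAb array of 3 h. Dtymk, thymidylate kinase, read 7.66 with iAb at 3 h, against 6.96 in naive cells. With iAb at 3 h, 2 of the 8 (Dctd and Dtymk) were thus called higher and 2 (Dck and Rrm2b) lower, against 15% and 12.6% of all genes. Dck, deoxycytidine kinase, was low with iAb at 3 h (6.97, against 8.48 in naive cells) and 9.17 with iAb at 24 h. The proliferation marker Mki67 had the late course too, at 10.53 with iAb, 10.55 with sAb+LatA and 9.83 with sAb at 24 h, against 7.05 in naive cells and at most 7.32 at 3 h, whereas Il2ra, an early activation gene, was at 11.43 with iAb, 10.87 with sAb+LatA and 10.22 with sAb by 3 h, against 8.21 in naive cells.

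**Figure D5:**
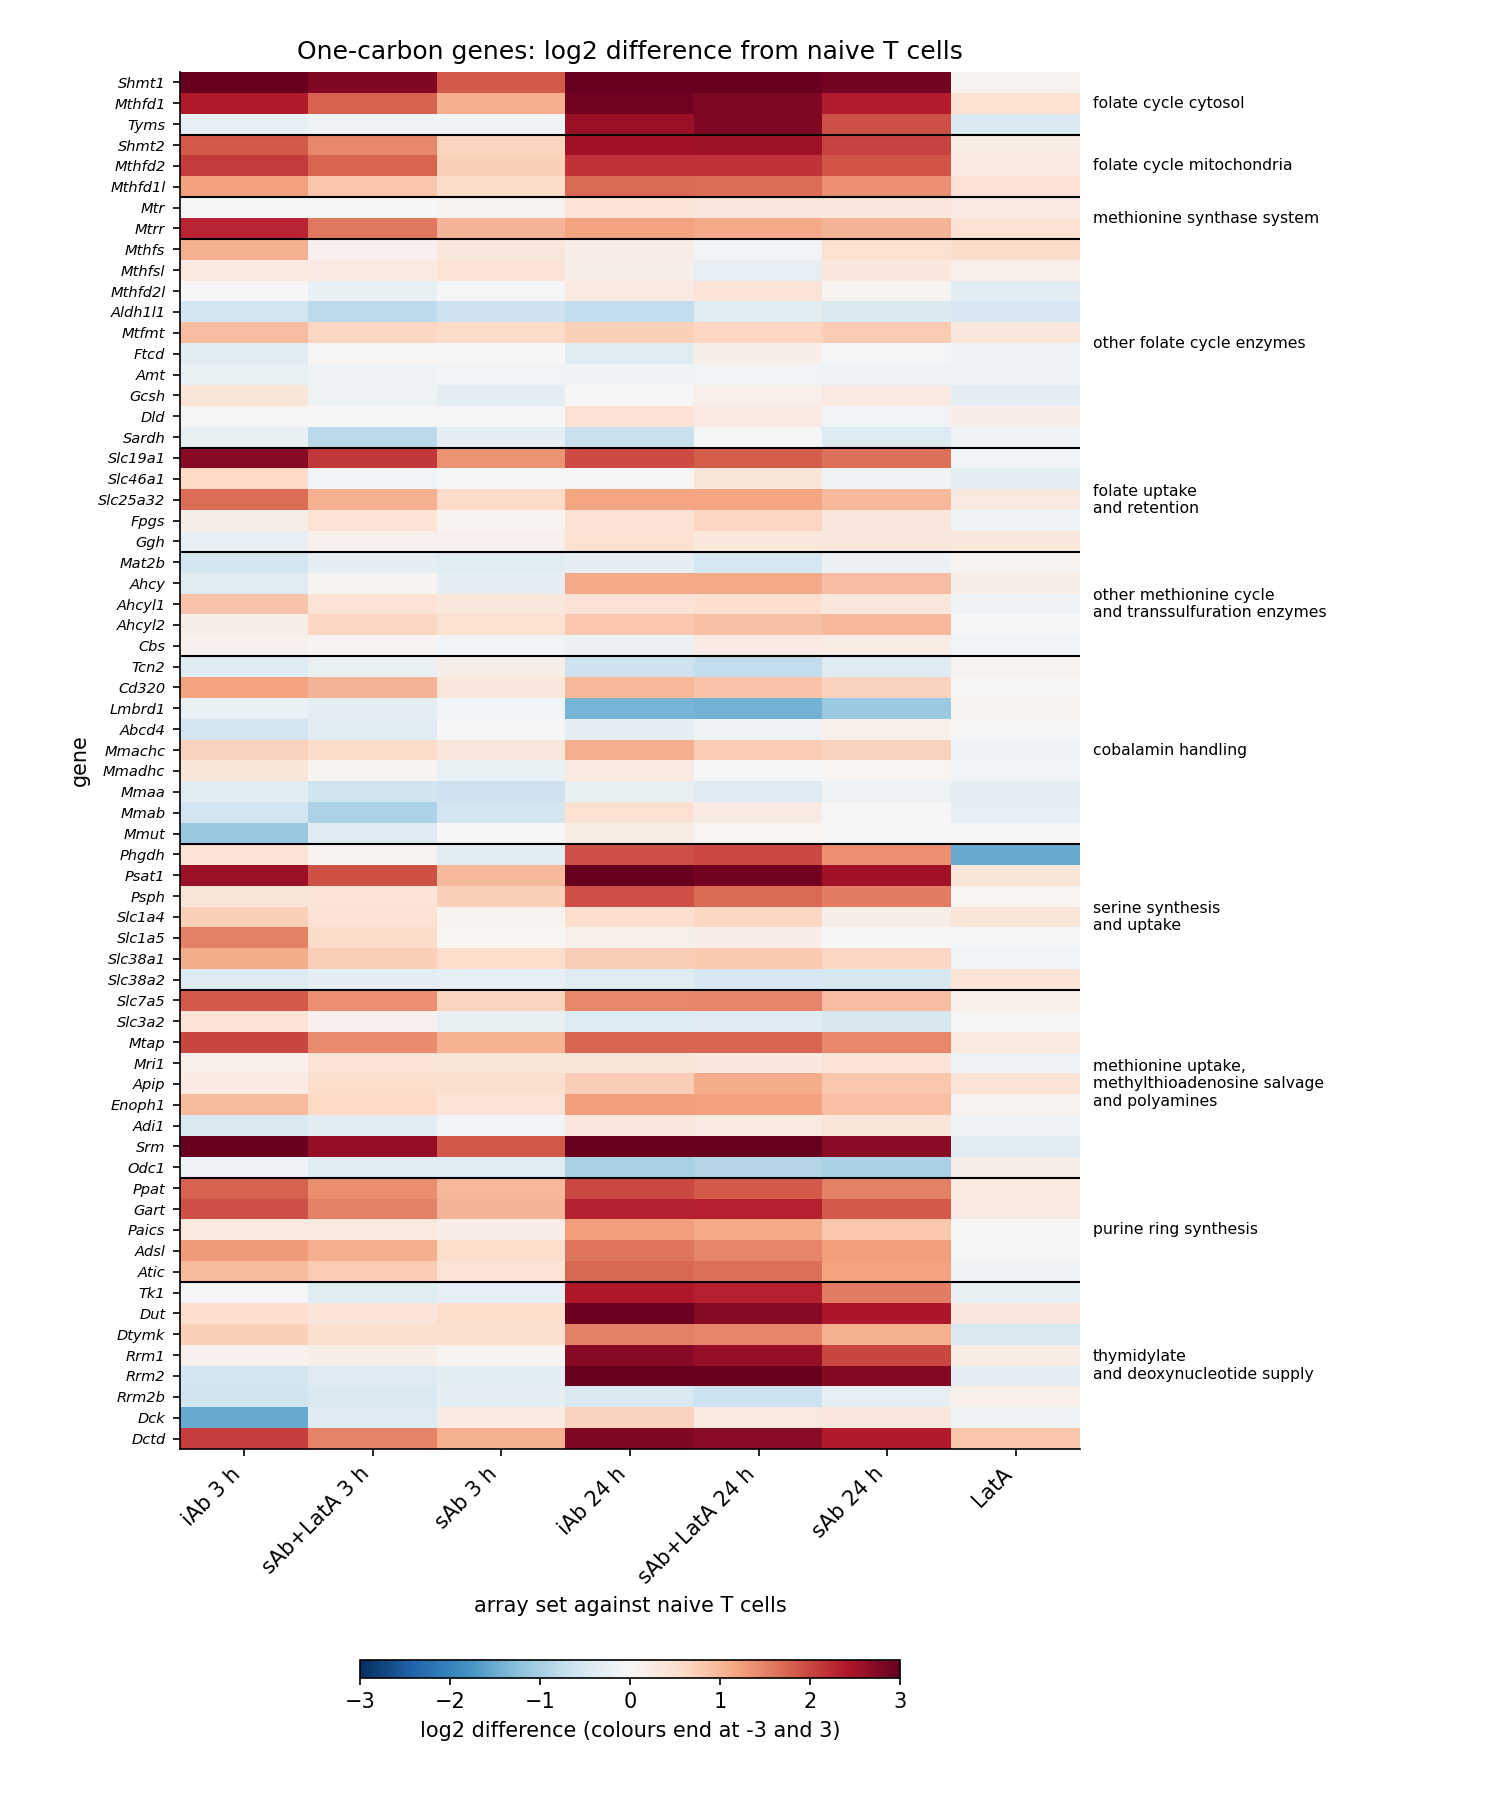
Log2 difference from naive cells (colour, red higher and blue lower, ending at 3 log2 units either way) for the pathway genes above background on at least 1 array (rows, grouped by role) on 7 arrays (columns), 1 array each. The rows of Slc19a1, Psat1, Srm and Gart are red at 3 h with iAb, as Shmt1 is, and those of Tk1, Rrm1 and Rrm2 only at 24 h, as Tyms is.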

How the data were processed

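RNA of mouse CD3+ T cells in 8 conditions was hybridized to 1 array each. The authors applied robust multi-average normalization to all arrays, giving the deposited table of 1 value per probe set. The log2 scale was read from the deposited values (1.20 to 14.3), since the sources used here do not state it. The number of arrays limits the precision. Of 41345 probe sets, 23521 had 1 symbol, 1820 several and 16004 were not listed in the annotation. Where a gene had several, the one of highest mean level was taken. Genes below background on both arrays of a comparison were left out. The additive fit used limma 3.58.1 in R 4.3.3 with Benjamini-Hochberg adjustment over 13245 genes. In it the stimuli replace replicates for time, and the times replace replicates for the stimuli. Its p-values thus rest on departures from additive effects of the conditions, not on spread between replicates. The fit was tested on simulated data with additive effects and independent errors only, which does not check its p-values under such departures.

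The 8 genes and the pathway and marker lists were chosen with earlier results of these data known. Named list genes are those with the 3 largest differences in iAb against sAb at 3 h, iAb against naive cells at 3 h or iAb at 24 h against 3 h, and genes counted to 5 or fewer. Similar genes are the 3 with the highest Pearson r, without predicted genes, receptor segments and small RNAs. Of 78 pathway and check genes 72 were measured, and of 33 markers 26. Alternatives were array centring, renewed quantile normalization, the mean of probe sets, a 2-fold threshold, other background filters, an intensity trend in limma and leaving out each stimulus.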

Additional observations from a re-analysis of the deposited data

Results flagged for a closer look

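Shmt1, Mtrr and Tyms had effects whose sign differed between the 2 times or between 2 stimuli, in some cases only through a value close to 0. Each value rests on single arrays, and the differences were not tested. For Shmt1, the change at 24 h relative to 3 h was -0.50 with iAb and 1.04 with sAb, a difference of -1.53, and with sAb+LatA it was 0.59, which differs from iAb by -1.09. Equally, iAb minus sAb+LatA was -0.06 at 24 h and 1.03 at 3 h for Shmt1, a difference of -1.09. For Mtrr, the change at 24 h relative to 3 h was -1.06 with iAb and 0.02 with sAb, a difference of -1.08. Tyms ran the other way: iAb minus sAb was 0.67 at 24 h and -0.14 at 3 h, a difference of 0.81, and sAb+LatA minus sAb was 0.88 at 24 h and -0.02 at 3 h, a difference of 0.90. The change of Mtrr with sAb, the difference of Shmt1 between iAb and sAb+LatA at 24 h and those of Tyms at 3 h lie within the spread of the receptor genes (0.29 to 0.36), so their signs carry no weight.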

How the results depend on the processing

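Of the 128 differences of the 8 genes, those called kept their direction under renewed quantile normalization and array centring. The offsets that centring removed, given below, were too small to reverse a difference of 1.5-fold. The mean of probe sets could change none of them, since each of the 8 genes has 1 such probe set. The direction of differences under the call was not checked. No paired analysis was possible because each condition has 1 array and no replicate numbers to pair by, other than the time test, which already compares the times within each stimulus. At 2-fold in place of 1.5-fold, the genes called higher numbered 3 in place of 5 for sAb against naive cells at 3 h, 1 in place of 4 for sAb+LatA against sAb at 3 h, 1 in place of 3 for iAb against sAb+LatA at 3 h, 0 in place of 1 for iAb and for sAb+LatA against sAb at 24 h, and, for 24 h against 3 h, 3 in place of 5 with sAb+LatA and 1 in place of 2 with iAb. Centring the arrays on their medians removed offsets of -0.11 (naive) to 0.13 (iAb at 24 h) from the mean of the medians. For 24 h against 3 h with sAb+LatA, centring gave 1 lower in place of 0. With iAb it gave 1 higher in place of 2 and 2 lower in place of 1. It also turned the balance over all genes: in the time test 1194 were higher and 1677 lower, against 1749 and 971, so 41.6% of calls were higher in place of 64.3%. Against naive cells that share went to 38.9% in place of 63.4% (sAb, 3 h), 42.8% in place of 54.1% (sAb+LatA, 3 h), 39.1% in place of 66% (sAb, 24 h), 40.6% in place of 62.5% (sAb+LatA, 24 h), 37.7% in place of 62.1% (iAb, 24 h) and 31% in place of 44.7% (LatA). At 3 h it went to 61.1% in place of 45.9% for iAb against sAb, 53.8% in place of 42% for sAb+LatA against sAb and 62.3% in place of 48.6% for iAb against sAb+LatA, and at 24 h to 33.5% in place of 47.8% for the last. For 24 h against 3 h it went to 48.4% in place of 62.8% (sAb), 44% in place of 64% (sAb+LatA) and 36% in place of 62.9% (iAb). Renewed quantile normalization moved it to 58.8% for sAb+LatA against sAb at 3 h, and for iAb against sAb+LatA to 35.3% at 3 h and 58.5% at 24 h. Leaving out the arrays of 1 stimulus gave 1 to 6 of the 8 genes higher with time and 0 to 1 lower, and without sAb+LatA 568 genes higher and 267 lower overall. The cause was not tested. Lists of similar genes changed as given above.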
